A study of Mus musculus with 10 samples.

Results

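Myeloid C-type lectin receptors are surface proteins by which macrophages, monocytes, dendritic cells and neutrophils bind sugars, lipids and debris of dead cells. The 8 genes described here, Clec4a1, Clec4a2, Clec4a3, Clec4d, Clec4e, Clec4n, Clec7a and Clec12a, were taken by symbol from a table of 55291 genes, and all 8 were found in it. They were put together because Clec4a3 rises with both Bap1 editing and CCl4 in these livers. The vehicle comparison and both CCl4 comparisons are therefore descriptions. Counts of genes past a threshold in them stand beside the share of all tested genes, and nothing is read from them. The comparison of the CCl4-treated groups was not named by that choice, and it is given with its test.

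Bulk RNA-seq was made from the right liver lobe of 10 female mice aged 16 to 20 weeks. Each vehicle group (NTC-Veh, sgBap1-Veh) held 2 livers and each CCl4 group (NTC-CCl4, sgBap1-CCl4) held 3. All mice, controls included, carried a Cas9 allele behind a Lox-Stop-Lox cassette and received the virus AAV8-U6-sgRNA-TBG-Cre by tail vein. The virus carried either a non-targeting control guide (NTC) or a guide against Bap1 (sgBap1), and the TBG promoter limits Cre to hepatocytes, so that the cells known for these lectins are not the cells meant to be edited. On day 10 the mice were injected intraperitoneally at 10 µL per g with CCl4, 1 part to 9 parts of olive oil, or with olive oil alone (Veh), and livers were taken 48 h later. CCl4 is a solvent that hepatocytes turn into a toxic radical. Bap1 measured 34.8 and 34.8 CPM (counts scaled to 1e+06 of the normalized library) in NTC-Veh livers and 17.5 and 19.5 CPM in sgBap1-Veh livers. With CCl4 it measured 29.5 to 31.5 CPM in the NTC and 17.0 to 21.8 CPM in the sgBap1 livers. The sgBap1 livers were thus below the NTC livers with either treatment.

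The estimated counts of a liver summed to 3.30e+07 to 5.22e+07, and 3 counts, taken as the least that can be told from 0, were 0.0511 to 0.112 CPM. That limit covers counting error only. Log2 CPM of livers in a group correlated at Pearson's r = 0.985 to 0.994. The 5 hepatocyte markers (Alb, Apoa1, Ttr, Cps1 and Apob) summed to 120921 to 148730 CPM in NTC-Veh and 106329 to 111939 CPM in sgBap1-Veh livers, and with CCl4 to 74495 to 84247 CPM for NTC and 67188 to 86384 CPM for sgBap1. The adipocyte genes Adipoq and Plin1 measured 36.4 and 34.5 CPM in sgBap1-CCl4 replicate 2 and at most 0.0425 CPM in the other 9 livers. Values without this liver are also given. In bulk tissue, fewer cells of a type and less RNA per cell cannot be told apart.

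The receptors fall into activating and inhibitory kinds. Dectin-1 (Clec7a), which binds beta-glucans, Dectin-2 (Clec4n), which binds mannans, Mincle (Clec4e), which binds mycobacterial glycolipids and the nuclear protein Sap130 released by dying cells, and MCL (Clec4d), a partner of Mincle, activate the kinase Syk and the adaptor Card9. Clec4n, Clec4d and Clec4e do so through the gamma chain Fcer1g, while Clec7a has a signalling motif of its own. Clec4a2 (DCIR) and Clec12a carry an inhibitory motif that recruits the phosphatases Ptpn6 and Ptpn11. Clec4a1 and Clec4a3 are close relatives of Clec4a2. In liver such receptors are known mainly from resident macrophages, the Kupffer cells, and from monocytes and neutrophils that enter after injury.

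All 8 genes lie on chromosome 6 (GRCm38, GENCODE vM21). Clec4a1 (122921848 to 122934619), Clec4a3 (122952515 to 122969875), Clec4a2 (123106428 to 123143999), Clec4n (123229843 to 123247021) and Clec4d (123262111 to 123275265) follow each other on the + strand. Clec4e (123281789 to 123289870) comes next on the - strand. Clec12a (129342691 to 129365303, + strand) and Clec7a (129461591 to 129472779, - strand) stand apart from them in a second cluster of lectin genes. Of the 50-base stretches in Clec4a2 transcripts, 6.69% also occur in other genes, among them the neighbours Clec4a4 and Clec4b1, the highest share among the 8, so some of its reads could be counted for another gene. The share was 0.686% for Clec4n, 0.402% for Clec12a and 0 for the other 5. Clec4a2 also overlaps Gm44132 on the same strand. Clec4a4 had a mean of 0.0136 to 0.0409 CPM over the 4 groups and was not tested, and Clec4b1 had a mean of 0.137 to 0.676 CPM.

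RefSeq promoter windows, from 250 bases before to 50 bases after a start site (GRCm38.p6), were at hand for 7 of the 8 genes, with Clec4n missing from the table. Those of 4 genes are printed, since Clec4a3 and Clec12a had the most similar pattern of any pair of members over all 10 livers, and Clec4d and Clec4e were the pair with the lowest levels in vehicle livers and the highest fold changes. Where several start sites are listed, the one furthest upstream was used. The capitals mark GAGGAA, a core bound by PU.1 (Spi1) and other ETS factors, or its reverse complement.
Clec4a3, chr6:122952265-122952564, + strand: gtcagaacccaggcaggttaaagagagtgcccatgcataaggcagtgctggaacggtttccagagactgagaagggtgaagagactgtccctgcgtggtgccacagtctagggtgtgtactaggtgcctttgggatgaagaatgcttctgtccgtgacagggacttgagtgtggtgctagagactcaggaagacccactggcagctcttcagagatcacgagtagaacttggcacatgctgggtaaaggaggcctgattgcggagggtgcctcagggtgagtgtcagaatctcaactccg
Clec12a, chr6:129349994-129350293, + strand: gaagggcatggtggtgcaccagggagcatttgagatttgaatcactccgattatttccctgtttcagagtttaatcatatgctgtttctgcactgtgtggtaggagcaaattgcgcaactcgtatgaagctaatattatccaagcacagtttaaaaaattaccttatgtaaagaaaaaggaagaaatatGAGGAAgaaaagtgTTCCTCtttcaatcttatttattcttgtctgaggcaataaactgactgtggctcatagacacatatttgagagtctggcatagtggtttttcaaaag
Clec4d, chr6:123261857-123262156, + strand: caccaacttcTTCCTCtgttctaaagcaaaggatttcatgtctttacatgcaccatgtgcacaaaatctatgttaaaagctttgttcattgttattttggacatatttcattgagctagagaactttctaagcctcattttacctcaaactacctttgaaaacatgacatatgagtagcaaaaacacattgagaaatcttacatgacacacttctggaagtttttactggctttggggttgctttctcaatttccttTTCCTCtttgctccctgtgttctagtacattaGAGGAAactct
Clec4e, chr6:123289822-123290121, - strand: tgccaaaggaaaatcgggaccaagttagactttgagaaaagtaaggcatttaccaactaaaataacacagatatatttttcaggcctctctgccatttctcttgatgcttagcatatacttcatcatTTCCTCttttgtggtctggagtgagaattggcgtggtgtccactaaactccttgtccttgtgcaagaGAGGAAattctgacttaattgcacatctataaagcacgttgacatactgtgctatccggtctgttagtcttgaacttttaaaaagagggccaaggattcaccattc

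GAGGAA occurred on either strand in 5 of the 7 windows, those of Clec4a1, Clec4d, Clec4e, Clec7a and Clec12a, and in 28.3% of 32851 windows of all genes. The Clec4d window held 3 matches, the Clec4a1, Clec4e and Clec12a windows 2 each and the Clec7a window 1. The windows of Clec4a3 and Clec4a2 held none. TTGCNNAA, a C/EBP-type core, occurred in the Clec4e and Clec12a windows and in 10.8% of all, and TGANTCA, an AP-1-type core, in the Clec4a2 and Clec12a windows and in 7.81% of all. TGANTCA reads the same on both strands, so a match was counted once. These are letter matches in 1 window per gene and no measure of binding.

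In vehicle-treated livers, the genes of the DCIR group were compared between sgBap1 and NTC. Clec4a3 measured 1.74 and 1.39 CPM in NTC-Veh and 4.33 and 4.005 CPM in sgBap1-Veh livers. Both edited livers lay above both controls, by 1.41 on the log2 scale (SE 0.18), a 2.66-fold difference. Clec4a1 measured 1.58 and 1.19 CPM against 2.40 and 3.37 CPM, a log2 fold change of 1.04 (SE 0.21). For the inhibitory receptor Clec4a2, the values were 0.980 and 0.998 CPM in NTC-Veh and 1.32 and 1.95 CPM in sgBap1-Veh livers. Its log2 fold change was 0.71 (SE 0.25), and its groups did not overlap, although the 2 edited livers differed from each other by more than the control livers did.

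Of the activating receptors of the Dectin-2 group, Clec4n measured 1.82 and 1.36 CPM in NTC-Veh and 4.198 and 3.29 CPM in sgBap1-Veh livers, a log2 fold change of 1.24 (SE 0.26) with no overlap. Clec4d and Clec4e were near the limit of detection. Clec4d had 5 and 6 counts in NTC-Veh and 6 and 4 counts in sgBap1-Veh livers (0.136 to 0.166 CPM over all 4), and its log2 fold change was 0.05 (SE 0.45). Clec4e had 9 and 2 counts against 7 and 12 counts, or 0.0554 to 0.449 CPM, and its log2 fold change was 0.996 (SE 0.70). Without NTC-Veh replicate 1 the log2 fold change of Clec4e was 2.39, without NTC-Veh replicate 2 it was 0.31, without sgBap1-Veh replicate 1 it was 1.55 and without sgBap1-Veh replicate 2 it was 0.32. The groups of both genes overlapped, and a difference in Clec4d or Clec4e was not detectable at this depth.

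In the other cluster, Clec7a measured 4.96 and 4.38 CPM in NTC-Veh and 10.1 and 8.12 CPM in sgBap1-Veh livers, a log2 fold change of 0.97 (SE 0.19). Clec12a measured 4.79 and 3.46 CPM against 9.10 and 6.74 CPM, a log2 fold change of 0.94 (SE 0.21). Neither gene overlapped between the groups.

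Counted over the members, 6 of 8 lay higher without overlap, where 21.7% of the 17015 tested genes did. The median log2 fold change was 0.98 for the 8 and 0.02 for all genes. In the model fitted across all genes (edgeR's quasi-likelihood test, Benjamini-Hochberg adjusted p under 0.05), 1 of the 8, Clec4a3, passed, where 0.523% of all genes passed. Clec4a3 was picked on this contrast, so that call supports nothing. With no filter on low counts 5 of 8 passed, where 177 of 27948 genes did. With DESeq2's Wald test 5 of 8 passed too, where 562 of 17015 genes did. The call of Clec4a3 was lost when only the vehicle livers were fitted (log2 fold change 1.39), without NTC-Veh replicate 2 (1.26) and without sgBap1-Veh replicate 1 (1.35).

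**Figure D1:**
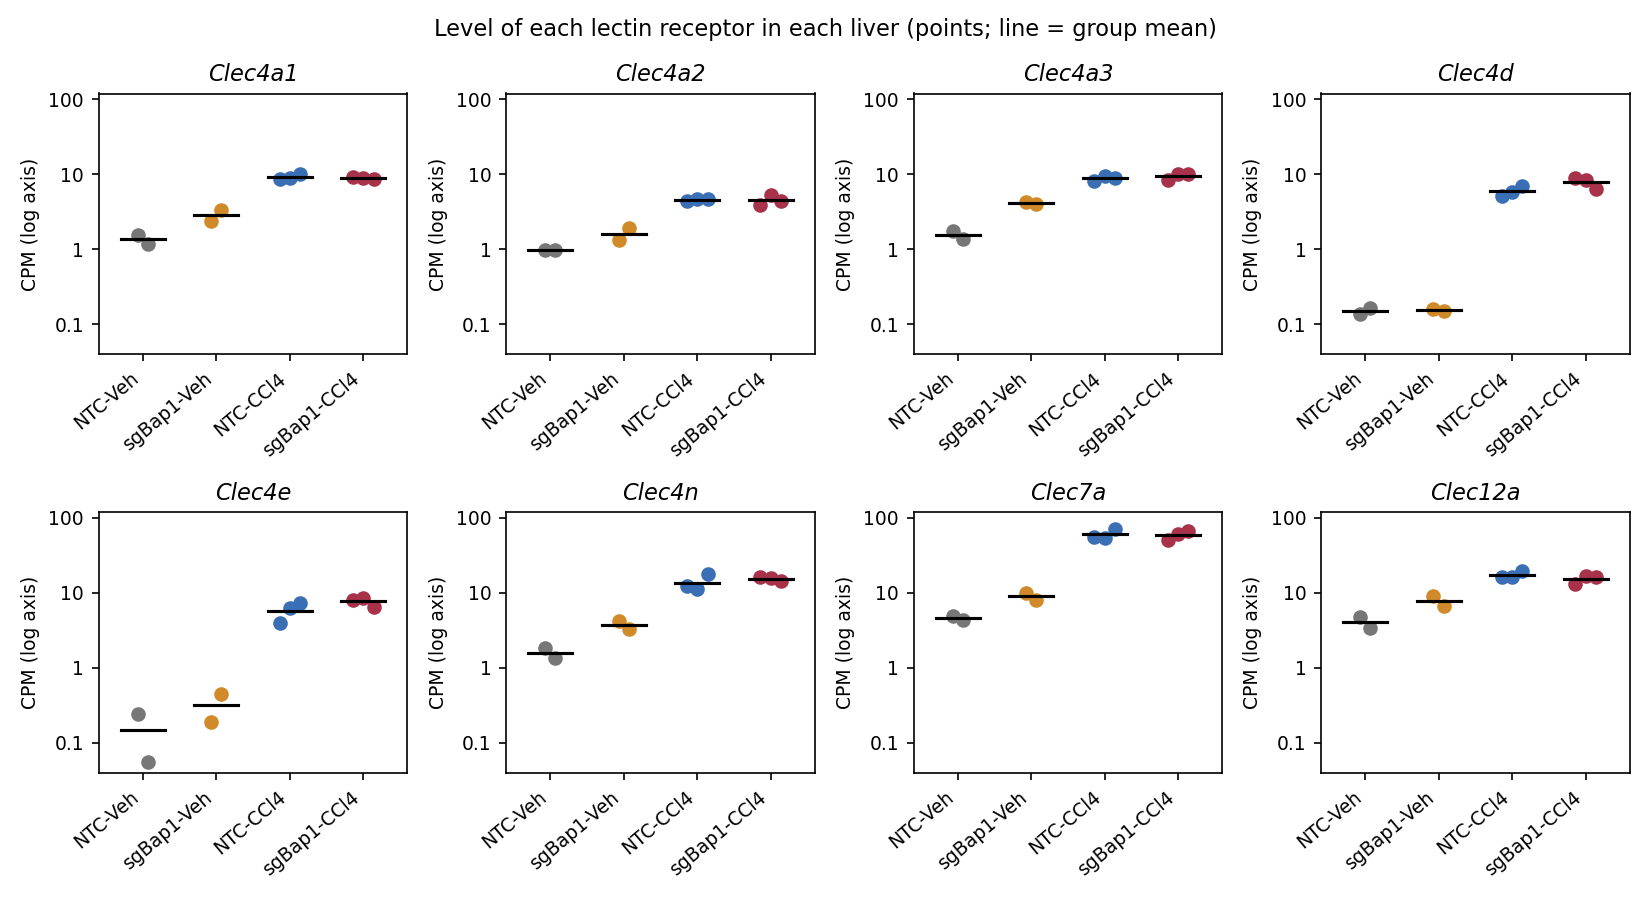
Level of each of the 8 lectin receptor genes in each of the 10 livers, in CPM on a log axis shared by all panels, by group. Points are livers and lines are group means. Clec4d and Clec4e stay below 0.5 CPM in every vehicle liver, and the CCl4-treated groups overlap for all 8 genes.

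CCl4 was followed by higher levels of all 8 genes in both genotypes, and the largest differences were those of Clec4d and Clec4e. In NTC-CCl4 livers Clec4d measured 5.14, 5.88 and 7.05 CPM. In sgBap1-CCl4 livers it measured 8.99, 8.51 and 6.48 CPM. Its log2 fold change from vehicle was 5.29 (SE 0.29) in NTC and 5.65 (SE 0.30) in sgBap1 livers. Clec4e measured 3.92, 6.24 and 7.31 CPM in NTC-CCl4 and 8.17, 8.61 and 6.42 CPM in sgBap1-CCl4 livers, which gave 5.24 (SE 0.52) and 4.66 (SE 0.48). Since these folds rest on few vehicle counts, the ratios of summed counts were computed too. For Clec4d in NTC livers it was 825 to 11 counts, 39.4-fold, with an exact 95% interval of 21.9 to 79.3 for counting error alone, and in sgBap1 livers 1330 to 10 counts, 51.7-fold (28.0 to 108). For Clec4e in NTC livers it was 797 to 11 counts, 38.1-fold (21.2 to 76.6), and in sgBap1 livers 1285 to 19 counts, 26.3-fold (16.8 to 43.8). Single vehicle livers moved the fold of Clec4e. Its log2 fold change in NTC livers was 6.64 without NTC-Veh replicate 1 and 4.56 without NTC-Veh replicate 2, and in sgBap1 livers 4.10 without sgBap1-Veh replicate 1 and 5.34 without sgBap1-Veh replicate 2.

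Clec4n, which shares the gamma chain with this pair, measured 12.2, 11.2 and 17.6 CPM in NTC-CCl4 and 16.1, 15.9 and 14.3 CPM in sgBap1-CCl4 livers. Its log2 fold changes were 3.10 (SE 0.24) in NTC and 2.04 (SE 0.22) in sgBap1 livers. Clec7a reached the highest CPM of the 8, with 56.3, 54.0 and 71.6 CPM in NTC-CCl4 and 50.5, 61.3 and 66.2 CPM in sgBap1-CCl4 livers. That was a log2 fold change of 3.70 (SE 0.19) and 2.699 (SE 0.17). The inhibitory Clec12a had the smallest change, 2.07 (SE 0.20) in NTC and 0.96 (SE 0.19) in sgBap1 livers, with 16.4, 16.3 and 19.5 CPM in NTC-CCl4 and 13.04, 16.9 and 16.4 CPM in sgBap1-CCl4 livers.

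Of the DCIR relatives, Clec4a1 measured 8.80, 9.02 and 10.1 CPM in NTC-CCl4 and 9.25, 9.09 and 8.65 CPM in sgBap1-CCl4 livers. Clec4a2 measured 4.39, 4.66 and 4.71 CPM against 3.97, 5.34 and 4.42 CPM. Clec4a3 measured 8.12, 9.41 and 9.03 CPM against 8.36, 10.3 and 10.1 CPM. Every CCl4-treated liver lay above every vehicle liver for these 3 genes. In NTC livers their log2 fold changes from vehicle were 2.74, 2.21 and 2.50 (SE 0.17 to 0.23), and in sgBap1 livers 1.65, 1.498 and 1.199 (SE 0.16 to 0.22).

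Clec4d and Clec4e passed the filter on low counts only through the CCl4-treated livers, so their difference from vehicle was fixed by that filter. The other 6 passed the threshold with CCl4 in NTC livers, where 53.8% of all tested genes passed in either direction and 27.5% upwards, and in sgBap1 livers, where 56.7% passed, 29% upwards. Clec4d and Clec4e were past it too. As the genes were put together on these contrasts, the counts support nothing. The groups of all 8 were without overlap in both, against 36.7% and 37.3% of all genes that lay higher without overlap. The median log2 fold change was 2.92 in NTC and 1.84 in sgBap1 livers, beside 0.03 and 0.04 over all genes. Without sgBap1-CCl4 replicate 2, the liver with adipocyte genes, the log2 fold changes in sgBap1 livers were 0.89 for Clec12a to 5.60 for Clec4d. Scaling by library size alone moved the median of all genes to 0.50 and 0.52 in these comparisons, and every member stayed higher.

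**Figure D2:**
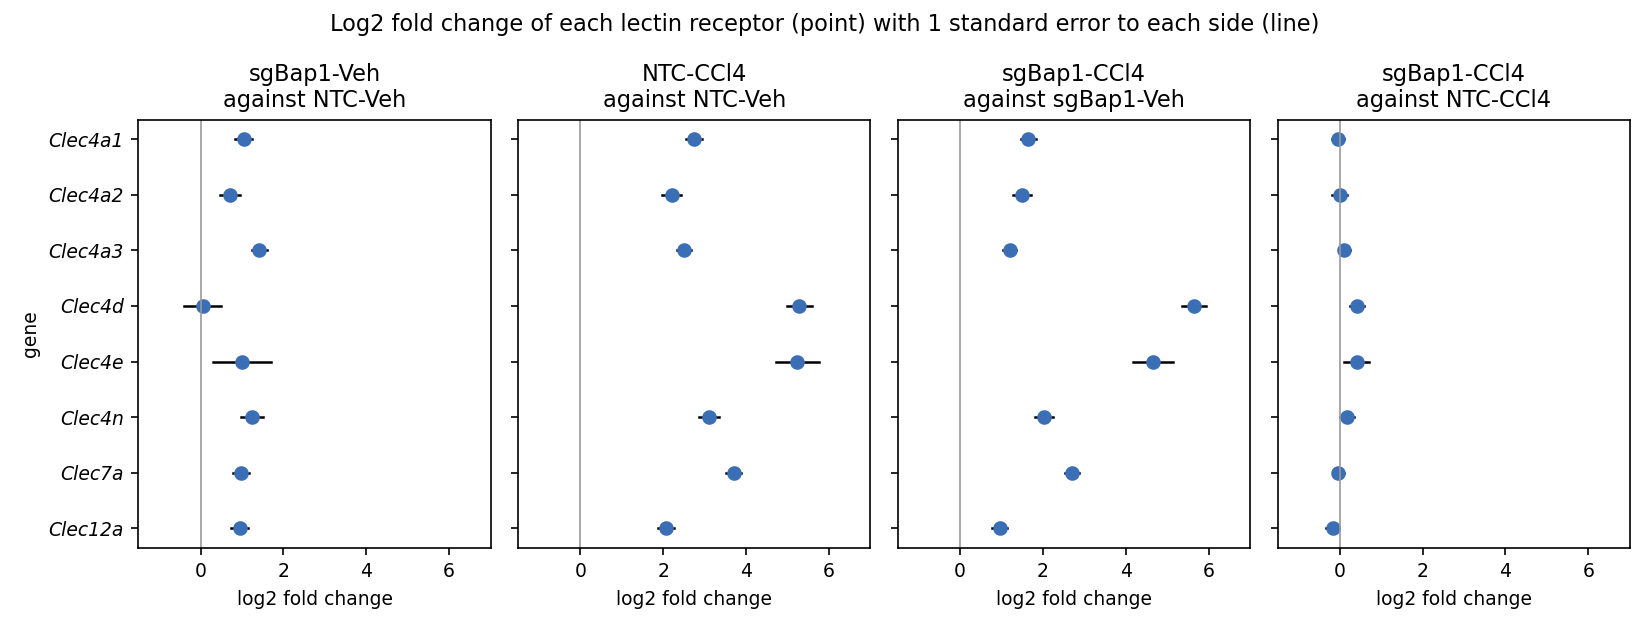
Log2 fold change of each lectin receptor gene (points) with 1 standard error to each side (lines) in the 4 pairwise comparisons, from 1 model of all 10 livers. The values run from 0.05 to 1.41 for sgBap1-Veh against NTC-Veh, from 0.96 to 5.65 for CCl4 against vehicle, and from -0.17 to 0.41 for sgBap1-CCl4 against NTC-CCl4.

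The CCl4-treated livers of the 2 genotypes were then compared, and no difference in any of the 8 genes passed the test. The livers of the 2 groups overlapped for all 8, and 0 of 8 passed, where 0.253% of all genes did (43 genes). DESeq2's Wald test also called 0 of 8. At an unadjusted p under 0.05, 1 of the 8 passed, Clec4d, where 13.4% of all genes passed. Clec4d had a log2 fold change of 0.41, with a 95% interval of 0.04 to 0.78 (unadjusted p = 0.0339, adjusted p = 0.326 by edgeR's quasi-likelihood test). Its partner Clec4e had 0.41, with an interval of -0.25 to 1.07 (adjusted p = 0.589 by edgeR).

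For Clec4a3 the difference was 0.11, with a 95% interval of -0.17 to 0.40 (adjusted p = 0.75 by edgeR). The differences were 0.18 for Clec4n, -0.03 for Clec7a, -0.05 for Clec4a1, -0.0030 for Clec4a2 and -0.17 for Clec12a. Intervals of these 5 genes ran from -0.52 at the lowest to 0.56 at the highest. Without sgBap1-CCl4 replicate 2 the 8 differences were -0.24 to 0.36, and 0 of 8 passed.

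The interaction, the CCl4 change in sgBap1 livers less that in NTC livers, was negative for 7 of the 8 genes. It was -1.30 (SE 0.22) for Clec4a3, -1.11 (SE 0.26) for Clec12a, -1.09 (SE 0.25) for Clec4a1, -1.06 (SE 0.31) for Clec4n and -0.999 (SE 0.23) for Clec7a. Clec4a2 had -0.71 (SE 0.30), and the sparse pair had -0.58 (SE 0.76) for Clec4e and 0.36 (SE 0.49) for Clec4d. Without sgBap1-CCl4 replicate 2 the 8 values were -1.36 for Clec4a3 to 0.31 for Clec4d, 7 of them negative. The interaction uses the vehicle livers on which Clec4a3 was picked, and is no independent measure of it. In edgeR's quasi-likelihood test 0 of 8 passed, as did 0 of all 17015 genes (0%). At an unadjusted p under 0.05, 1796 genes (10.6%) passed, 6 of them members. DESeq2's Wald test called 424 genes and 4 members, Clec4a1, Clec4a3, Clec7a and Clec12a, all lower.

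Levels of different genes were compared as CPM per kilobase of the longest annotated transcript. Clec7a was the highest in every group, with 2.05 ± 0.18 (SD, n = 2) CPM per kilobase in NTC-Veh and 3.99 ± 0.60 (n = 2) in sgBap1-Veh livers, and with CCl4 26.6 ± 4.2 (n = 3) for NTC and 26.0 ± 3.5 (n = 3) for sgBap1. Its livers did not overlap with those of the next gene in any group. In NTC-Veh livers Clec12a, Clec4a3, Clec4n and Clec4a1 followed with 1.28, 1.203, 1.13 and 0.889 CPM per kilobase, and each overlapped with its neighbour in that order. Clec4a2 had 0.399, Clec4d 0.114 and Clec4e 0.0313 CPM per kilobase, each apart from the next. In sgBap1-Veh livers Clec4a3 followed Clec7a, at 3.21 ± 0.18 (n = 2), above Clec4n at 2.67, with no overlap between them.

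With CCl4 Clec4n came next after Clec7a in both genotypes, with 9.75 ± 2.47 (n = 3) CPM per kilobase in NTC-CCl4 and 11.001 ± 0.694 (n = 3) in sgBap1-CCl4 livers. Clec4a3 followed with 6.81 and 7.38 CPM per kilobase, and overlapped with the next gene in both. Clec4e remained last, at 1.21 and 1.61 CPM per kilobase, though in sgBap1-CCl4 livers it overlapped with Clec4a2 at 1.84. Taking the length of all exons together, a choice made first and changed after its values were seen, put Clec12a at rank 5 in both vehicle groups in place of ranks 2 and 4.

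Within each liver the make-up of the members' counts also differed between treatments. Clec7a held 30.5% to 33.7% of the summed counts of the 8 genes in NTC-Veh and 28.9% to 31.7% in sgBap1-Veh livers. With CCl4 its share was 46.3% to 48.9% for NTC and 42.6% to 49.7% for sgBap1. Clec12a went the other way, from 26.7% to 29.5% in NTC-Veh and 24.0% to 28.6% in sgBap1-Veh livers down to 13.3% to 14.2% with CCl4 for NTC and 11.02% to 12.4% for sgBap1. Clec4d and Clec4e each held 0.427% to 1.60% in vehicle livers and 3.40% to 7.60% in CCl4-treated livers. Clec4a3 held 10.7% in both NTC-Veh livers and 13.6% and 14.3% in the sgBap1-Veh livers. These shares depend on transcript length and do not rank the genes.

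**Figure D3:**
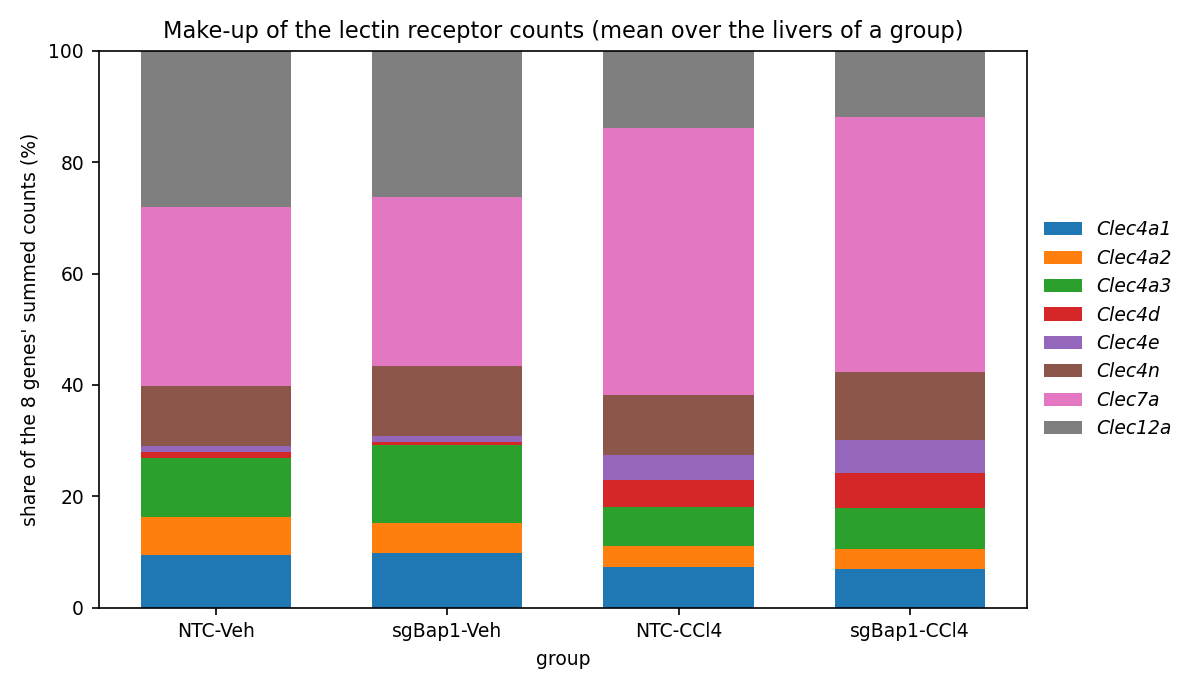
Share of each gene in the summed counts of the 8 lectin receptor genes, in percent, as the mean over the livers of a group (stacked bars, with the 8 genes in colours). Clec7a averages 32.1% in NTC-Veh and 48.0% in NTC-CCl4 livers, and Clec12a 28.1% and 13.8%.

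Over the 10 livers, the most similar pair of members was Clec4a3 and Clec12a, whose log2 CPM, each centred on the gene's median, differed by a root mean square of 0.22. Clec4d and Clec4e differed by 0.29, and Clec4d and Clec12a by 1.28, the most of the 28 pairs. Vehicle levels of Clec4d and Clec4e, 0.0554 to 0.449 CPM, lay below the pseudocount of 0.5 CPM. That compresses their vehicle values, so distances that involve these 2 genes partly reflect it. There were 12020 other tested genes that averaged 100 counts or more, and of these the 3 closest to Clec4a3 were Tmsb4x, an actin-binding peptide, at 0.12, Ms4a6b, a membrane protein of myeloid and lymphoid cells, at 0.15, and Fcer1g, the gamma chain, at 0.15. Fcer1g measured 7.21 ± 1.58 CPM (n = 2) in NTC-Veh and 13.7 ± 1.1 (n = 2) in sgBap1-Veh livers, and with CCl4 34.9 ± 2.8 (n = 3) for NTC and 35.8 ± 4.2 (n = 3) for sgBap1. The 3 closest to Clec4e were Il1rn, the interleukin-1 receptor antagonist, at 0.18, the lactate transporter Slc16a3 at 0.21 and the transcription factor Egr2 at 0.21. These orders changed without sgBap1-CCl4 replicate 2. Over the other 9 livers Clec4a2 and Clec4a3 were the most similar pair, at 0.29, with Clec4a3 and Clec12a at 0.32 and Clec4d and Clec4e at 0.45, Cd52 (0.16) took the place of Fcer1g, and Cd14 (0.24) that of Slc16a3.

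The signalling genes that these receptors use were counted from a list of 16 adaptors, kinases and phosphatases. The shares of all genes beside the counts with CCl4 are 27.5% upwards and 26.3% downwards in NTC and 29% and 27.7% in sgBap1 livers, and 0.523% in vehicle livers. With CCl4, 15 of 16 passed upwards in NTC and 15 of 16 in sgBap1 livers, and the exception in both was Malt1, a partner of Card9 (log2 fold changes 0.16 and 0.25). Syk rose by 2.26 (SE 0.20) and 1.46 (SE 0.19) on the log2 scale, and Card9 by 2.41 (SE 0.29) and 1.87 (SE 0.28). The list's median was 2.15 in NTC and 1.39 in sgBap1 livers. In vehicle livers 3 of 16 passed, Fcer1g at 0.93 (SE 0.16), the exchange factor Vav1 at 0.89 (SE 0.16) and the lipid phosphatase Inpp5d at 0.80 (SE 0.15), with a list median of 0.62. Their adjusted p was 0.048 to 0.05 by edgeR. All 3 calls were lost with library size alone, only the vehicle groups fitted, or replicate number as a block (adjusted p 0.0676 to 0.206 by edgeR). The method of edgeR 4 lost those of Vav1 and Inpp5d (adjusted p 0.0507). Leaving out a liver lost all 3 calls, except without NTC-Veh replicate 1 or sgBap1-CCl4 replicate 2. Only Fcer1g was kept without the former, and all 3 were kept without the latter. Between the CCl4-treated groups 0 of 16 passed, with a median of 0.04.

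Downstream, 12 of 15 cytokine, transcription factor and inflammasome genes passed upwards with CCl4 in NTC livers and 10 of 15 in sgBap1 livers. The chemokines Ccl3 and Cxcl2 had log2 fold changes of 4.52 (SE 0.54) and 4.11 (SE 0.65) in NTC livers. In sgBap1 livers they had 3.99 (SE 0.50) and 3.32 (SE 0.55). These folds rest on few vehicle counts, as Ccl3 averaged 6 and Cxcl2 2.5 counts per NTC-Veh liver. Every vehicle liver had at most 0.225 CPM of Cxcl2, Il12b and Il23a, below the lowest filter cutoff of 0.228 CPM. Those genes passed the low-count filter only through CCl4-treated livers, so their difference from vehicle was fixed by that filter. They are counted among the 12 of 15 in NTC livers. None of the 15 passed in either comparison of sgBap1 with NTC. Sap130, the ligand of Mincle, fell by 0.49 (SE 0.10) with CCl4 in NTC and by 0.58 (SE 0.10) in sgBap1 livers, on the log2 scale of its mRNA.

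Of 6 transcription factors known from myeloid cells, 3 passed upwards and 2 downwards with CCl4 in NTC livers, and 3 and 1 in sgBap1 livers. Spi1, which encodes PU.1, rose by 2.20 (SE 0.22) in NTC and 1.397 (SE 0.21) in sgBap1 livers. Irf8, a factor of monocyte and dendritic cell development, rose by 1.68 (SE 0.15) and 0.79 (SE 0.14). It was the 1 of 6 that passed in vehicle livers, at 0.95 (SE 0.16). That call was lost with library size alone, only the vehicle groups fitted, or replicate number as a block (adjusted p 0.0686 to 0.14 by edgeR). Leaving out a liver kept it only without sgBap1-Veh replicate 2, NTC-CCl4 replicate 3 or sgBap1-CCl4 replicate 2. Hif1a, a factor of the response to low oxygen, rose by 0.51 (SE 0.10) and 0.28 (SE 0.10). Cebpa, which hepatocytes also express, fell by 1.56 (SE 0.19) and by 1.92 (SE 0.19) with CCl4. Its relative Cebpb fell by 0.83 (SE 0.20) in NTC livers and had a change of 0.26 (SE 0.21) in sgBap1 livers.

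In the same 2 clusters, 9 of 13 listed genes were tested, and with CCl4 in NTC livers 4 passed upwards and 2 downwards. Olr1, a receptor for oxidized lipoproteins, had 451 summed counts in NTC-CCl4 against 3 in NTC-Veh livers, a ratio of 79.0 with an exact 95% interval of 26.9 to 385 for counting error, and Clec2d fell by 1.72 (SE 0.18). The NTC-Veh livers held 1 and 2 counts of Olr1, each below the 3 counts taken as the least that can be told from 0. Olr1 and Clec4b1 passed the low-count filter only through CCl4-treated livers, so their difference from vehicle was fixed by that filter. Of 25 lectins elsewhere in the genome, 23 were tested, of which 11 passed upwards and 5 downwards. The liver collectins Colec10 and Colec11 fell by 0.92 (SE 0.13) and by 1.11 (SE 0.14). In sgBap1 livers 4 and 3 passed in the first list, 9 and 7 in the second. Of all tested genes, 27.5% passed upwards and 26.3% downwards in NTC, and 29% and 27.7% in sgBap1 livers. Clec4f, a lectin of Kupffer cells, fell by 1.29 (SE 0.24) with CCl4 in sgBap1 livers and had a change of -0.25 (SE 0.25) in NTC livers.

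The levels of cell type markers are given beside those of the members. The summed level of the 6 macrophage markers was 198 to 209 CPM in NTC-Veh and 215 to 323 CPM in sgBap1-Veh livers, and with CCl4 253 to 324 CPM for NTC and 284 to 348 CPM for sgBap1. That of the 7 Kupffer cell markers was 171 to 279, 343.6 to 537, 437 to 860.0 and 425 to 622 CPM in the same order. Of the 6 monocyte markers, Fn1, which hepatocytes also express, made up nearly all of the sum (2241 to 3171 CPM over all livers). In vehicle livers that sum lay lower with sgBap1, at 2241 to 2269 CPM against 2600 to 2690 CPM in NTC-Veh. Without Fn1 the other 5 summed to 12.3 to 13.97 CPM in NTC-Veh and 18.1 to 21.3 CPM in sgBap1-Veh livers, and with CCl4 to 120.3 to 133 CPM for NTC and 109 to 144 CPM for sgBap1. The 7 neutrophil markers summed to 5.85 to 10.9, 9.43 to 12.2, 29.5 to 38.9 and 32.5 to 42.3 CPM. The 6 T and NK cell markers summed to 2.19 to 3.95, 6.96 to 7.27, 4.88 to 8.72 and 4.48 to 7.14 CPM, the 4 B cell markers to 3.46 to 7.43, 8.38 to 9.88, 8.81 to 11.5 and 7.62 to 9.23 CPM, and the 6 dendritic cell markers to 8.85 to 10.1, 11.4 to 13.4, 11.5 to 12.1 and 9.78 to 12.3 CPM. In vehicle livers the sums of the Kupffer cell, T and NK cell, B cell and dendritic cell markers lay higher with sgBap1 without overlap. That of the macrophage markers did so too, and that of the monocyte markers only without Fn1. The neutrophil sums overlapped. Of single tested genes, 21.7% lay higher without overlap. No listed marker was at 0 in all 10 livers.

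In the vehicle comparison 1 of 6 macrophage markers passed, the receptor Csf1r at 1.06 (SE 0.18), and 0 of 7 Kupffer, 0 of 6 monocyte, 0 of 6 tested neutrophil, 0 of 6 T and NK cell, 0 of 4 B cell and 0 of 6 dendritic cell markers. The call of Csf1r was lost with library size alone, only the vehicle groups fitted, or replicate number as a block (adjusted p 0.0716 to 0.146 by edgeR). Leaving out a liver kept it only without sgBap1-Veh replicate 2 or sgBap1-CCl4 replicate 2. The median log2 fold change was 1.03 for macrophage, 0.93 for Kupffer, 1.17 for T and NK cell, 0.69 for B cell and 0.65 for dendritic cell markers, with every listed marker of these 5 types above 0, beside 0.98 for the 8 members. For monocyte markers the median was 0.51, with 4 above 0 and 2 below. For the tested neutrophil markers it was 0.25, with 5 above 0 and 1 below. With CCl4, 5 of 6 monocyte markers and all 6 tested neutrophil markers passed upwards in both genotypes, with Ccr2 at 4.04 (SE 0.14) in NTC and 3.25 (SE 0.13) in sgBap1 livers. Of the macrophage markers, 4 passed upwards in NTC livers and 3 in sgBap1 livers. Of the 7 Kupffer cell markers, the scavenger receptor Marco and Cd5l, a protein secreted by macrophages, passed upwards in NTC livers. In sgBap1 livers Marco passed upwards, and Clec4f, Timd4 and Cd163 passed downwards, with a list median of -0.56. Marco and Cd5l averaged 251 and 248 CPM in NTC-CCl4 livers, and so made up most of the Kupffer cell sum there. T and NK cell markers passed upwards in 2 of 6 in NTC and 0 of 6 in sgBap1 livers, and hepatocyte markers fell in 4 of 5 and 1 of 5. Between the CCl4-treated groups none of these markers passed. The part of these cell types in the lectin receptor values was not tested.

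Set against the macrophage markers of the same liver, a measure added after the values were seen, Clec4a3 had 0.661 to 0.879 CPM per 100 CPM of marker in NTC-Veh and 1.34 to 1.86 in sgBap1-Veh livers, and with CCl4 2.79 to 3.38 for NTC and 2.81 to 3.56 for sgBap1. Clec4a1 and Clec4a2 overlapped between the vehicle groups on that measure. Clec4n, Clec7a and Clec12a did not overlap there. All 8 genes were higher in every CCl4-treated liver than in every vehicle liver of the same genotype. Clec4d and Clec4e had passed the low-count filter only through CCl4-treated livers. The measure was not computed for all tested genes, so there is no share to set beside these overlaps, and nothing is read from them.

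The values that include sgBap1-CCl4 replicate 2 were also taken from the other livers, a choice made after the data were seen. In sgBap1 livers with CCl4, 15 of 16 signalling genes and 9 of 14 tested downstream genes then passed upwards. Of the transcription factors 2 passed upwards and 1 downwards, of the lectins in the same clusters 3 and 3, and of the lectins elsewhere 8 and 6. Macrophage markers passed upwards in 2, and Kupffer cell markers upwards in 1 and downwards in 1, while monocyte and neutrophil markers stayed at 5 and 6 upwards. In the comparison with NTC-CCl4 livers 0 genes of any list passed. The order of the members' levels per kilobase was the same, from 25.6 for Clec7a and 10.8 for Clec4n down to 1.69 for Clec4a2 and 1.52 for Clec4e. The summed level of the 8 was 118 to 133 CPM, that of macrophage markers 284 to 297 CPM, of Kupffer cell markers 425 to 508 CPM and of neutrophil markers 32.5 to 40.9 CPM.

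**Figure D4:**
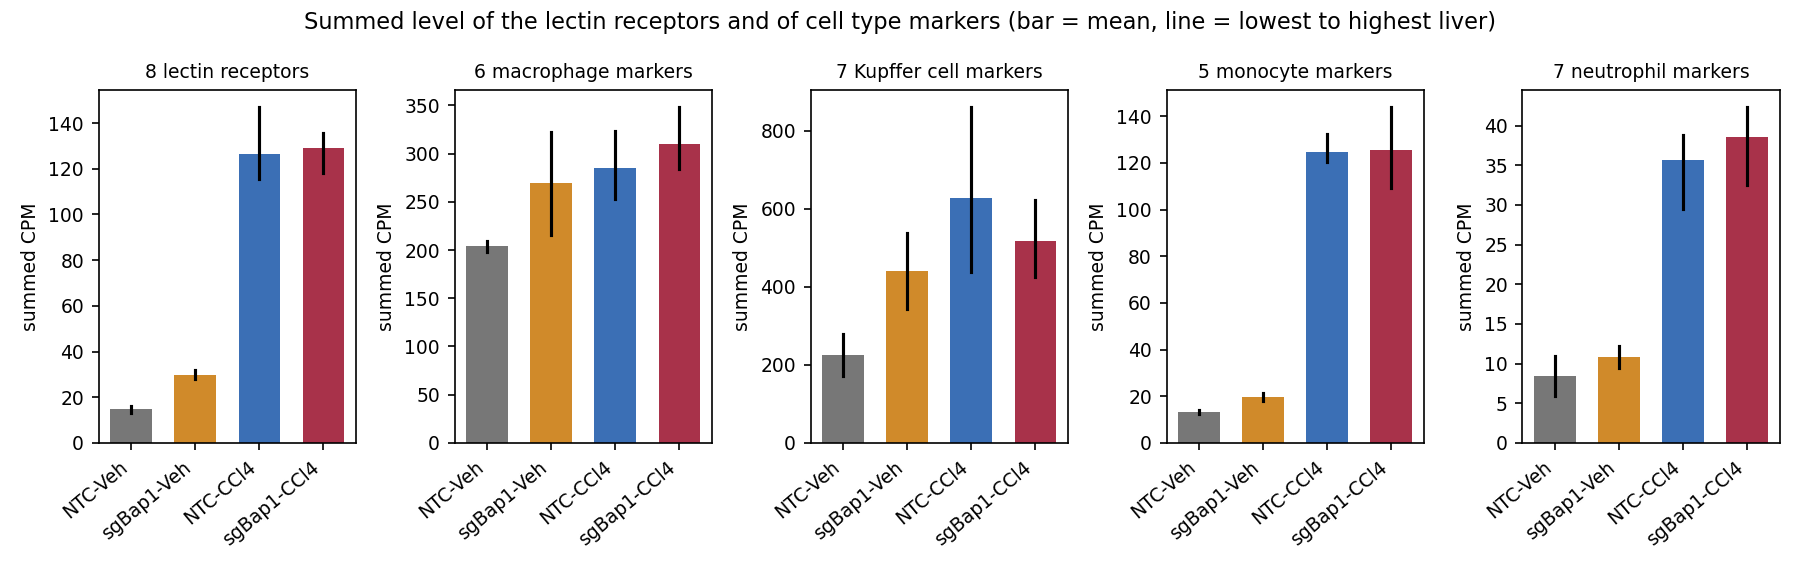
Summed CPM of the 8 lectin receptor genes, of the 6 macrophage, 7 Kupffer cell and 7 neutrophil markers, and of the 5 monocyte markers other than Fn1, by group. Bars are means and lines run from the lowest to the highest liver. The lectin receptors sum to 12.996 to 16.3 CPM in NTC-Veh and 28.1 to 31.8 CPM in sgBap1-Veh livers, and with CCl4 to 115 to 147 CPM for NTC and 118 to 136 CPM for sgBap1.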

How the data were processed

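The authors made stranded mRNA libraries, sequenced 2 reads of 50 bases per fragment, aligned them with STAR 2.7.6a to GRCm38 and ran Salmon 1.4.0 with GENCODE vM25. The authors deposited Salmon's estimated counts summed per gene symbol, without normalization. The library type set in Salmon is not given in the sources used here.

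Counts were rounded and normalized by TMM. The filterByExpr rule over the 4 groups left 17015 genes, and 1 model of the groups was fitted with edgeR 4.0.16 in R 4.3.3 (estimateDisp, glmQLFit with robust = TRUE and its default method, which is that of edgeR 3). Tests were two-sided, with Benjamini-Hochberg adjustment over all tested genes and a threshold of 0.05. An SE is the log2 fold change over the square root of F. Log2 CPM used a pseudocount of 0.5 CPM. Some list genes, such as Cxcl2, Olr1, Sele and Mmp8, passed the filter only through CCl4-treated livers. Their difference from vehicle was fixed by it, and they are counted with the rest of their lists.

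The members, lists and markers were chosen with earlier results of these data known. Named genes are the members, Bap1, genes of the lists past the threshold in a comparison described, and the 3 genes most like Clec4a3 and Clec4e. Malt1, Clec4a4, Adipoq, Plin1, Fn1, Cd52, Cd14, the NTC value of Clec4f and the sgBap1 value of Cebpb were named after their values were seen. Alternatives were DESeq2 size factors, library size alone, no filter, a mean of at least 10 counts, DESeq2 1.42.0, only the groups compared, a replicate block and each liver left out. After the values were seen, the method of edgeR 4, transcript length, levels per macrophage marker, the monocyte sum without Fn1, list counts without single livers and values without sgBap1-CCl4 replicate 2 were added. The downward calls among the macrophage markers are not reported here. Labels do not say whether replicates share a litter or a day.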

Additional observations from a re-analysis of the deposited data

How the results depend on the processing

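Both CCl4 comparisons called all 8 members under every alternative run. In the fit as reported, 53.8% and 56.7% of all tested genes passed. The genes were put together on a CCl4 rise, and Clec4d and Clec4e passed the main filter only through CCl4-treated livers. The 8 calls therefore support nothing. The comparison of the CCl4-treated groups called 0 of 8 under every alternative. The vehicle call of Clec4a3 was not kept under every alternative. Its adjusted p by edgeR was 0.0172 as reported, 0.13 with only the groups compared (log2 fold change 1.39) and 0.0713 with the replicate block (1.41). The call was also lost without NTC-Veh replicate 2 (1.26) and without sgBap1-Veh replicate 1 (1.35). In the other edgeR fits of all 10 livers the adjusted p was 0.00262 to 0.0208, and by DESeq2's Wald test it was 7.13e-07. Vehicle members called were 0 with only the groups compared and with the replicate block, 5 with no filter and 5 with DESeq2's Wald test, and 0 to 2 leaving out a liver. Interaction members called were 1 with no filter, 4 with DESeq2's Wald test and 0 leaving out a liver.

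Vehicle genes called, 89 as reported, were 47 with library size alone, 177 with no filter, 562 with DESeq2's Wald test, 35 with only the groups compared, 1 with the replicate block and 0 to 150 leaving out a liver. Genes called between the CCl4-treated groups, 43 as reported, were 113 with no filter, 509 with DESeq2's Wald test, 3 with the replicate block and 1 to 49 leaving out a liver. For the interaction, 0 as reported, they were 8 with library size alone, 103 with no filter, 424 with DESeq2's Wald test and 0 to 12 leaving out a liver. The method of edgeR 4, added after the data were seen, gave 69 vehicle genes and 56 between the CCl4-treated groups, with the same number of members called in each comparison. The cause of these differences was not tested.

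Small differences changed sign. Between the CCl4-treated groups, Clec4a2 was 0.019 with library size alone and 0.0032 with no filter, and -0.129 to 0.091 leaving out a liver, Clec4a1 -0.085 to 0.014 and Clec7a -0.128 to 0.104. Leaving out a liver moved Clec4d in the vehicle comparison over -0.090 to 0.196, below 0 without NTC-Veh replicate 1 or sgBap1-Veh replicate 1, and the interaction of Clec4e over -1.98 to 0.105, above 0 without NTC-Veh replicate 2 or sgBap1-Veh replicate 2. A lone liver left in a group was assumed to vary like the other groups. Deviations from the group means of same-numbered livers correlated at -0.19 to 0.12. In groups of 2 the deviations of both livers mirror each other, so these values do not decide whether replicate numbers pair the livers. Depth limits Clec4d and Clec4e in vehicle livers, at 2 to 12 counts.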
